A study of Bos taurus with 15 samples.

Results

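ZP2, ZP3 and TECTB encode secreted or membrane-anchored proteins that carry a zona pellucida domain, the module through which such proteins polymerize into extracellular filaments. They were followed in oocytes of cattle (Bos taurus) and in embryos made in vitro, over 8 stages from the oocyte to the blastocyst. The members were all probe sets that the platform's annotation names ZP2, ZP3 or TECTB. There was 1 for each gene, so 3 of the 24128 probe sets on the array. The annotation ties the ZP2 and ZP3 probe sets to RefSeq transcripts and the TECTB probe set to another GenBank sequence.

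The series used Affymetrix Bovine Genome arrays, which give 1 signal per probe set, an intensity on a linear scale. The 15 arrays were 3 of oocytes, 2 of 1-cell embryos, 1 each of 2-cell, 4-cell, 8-cell and 16-cell embryos, 3 of morulae and 3 of blastocysts. Oocytes came from ovarian follicles and were matured with LH, FSH and fetal calf serum, fertilized with sperm treated with heparin, penicillamine, hypotaurine and epinephrine, freed of cumulus cells by vortexing and cultured in SOF medium with albumin. The labels give this 1 protocol for all groups and no other treatment, strain or genotype. They do not say at which step the oocyte samples were taken, whether cumulus cells had been removed from them, or how many oocytes or embryos went into an array. They call the replicates biological without naming separate cultures, so the p-values rest on a spread between arrays that may be technical.

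The zona pellucida is the extracellular coat that the growing oocyte lays down around itself from a few glycoproteins. It carries the sites at which sperm attach, it is altered after fertilization so that further sperm are kept out, and it encloses the embryo until the blastocyst hatches. ZP2 and ZP3 are 2 of its glycoproteins, and in cattle ZP4 is another. ZP3 and ZP2 or ZP4 subunits alternate along the coat's filaments, and ZP2 is the subunit that a protease released from the egg cleaves at fertilization. TECTB encodes beta-tectorin, a zona pellucida domain protein known from the tectorial membrane, the gel over the sensory cells of the inner ear.

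All 3 transcripts were high from the oocyte to the 8-cell array, lower on the 16-cell array than the mean of each earlier stage, and far lower or, for ZP3, lower to a smaller extent in morulae and blastocysts. On each gene's own scale, the morula mean was 0.779% of the oocyte mean for ZP2, 0.280% for TECTB and 10.0% for ZP3. Without oocyte array 3 the ZP3 share was 25.1%, and without oocyte array 1 it was 7.17%. In morulae and blastocysts 6 of 6 TECTB signals, 3 of 6 ZP2 signals and none of ZP3 lay below the median signal of their array, which was 48.2 to 61.7, and signals that low are not shown to be above background. Each of the 3 had all 8 arrays from oocyte to 8-cell above all 6 arrays of morulae and blastocysts, a separation that 5.32% of the 24016 probe sets tested showed. In ZP2 and TECTB the 16-cell array lay in the gap between the sets, as it did for 1.52% of probe sets, while the ZP3 signal of that array lay within the range of the earlier arrays. A signal on such arrays is a share of the amplified RNA, and in bulk samples fewer cells of a type and less RNA per cell cannot be told apart.

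**Figure D1:**
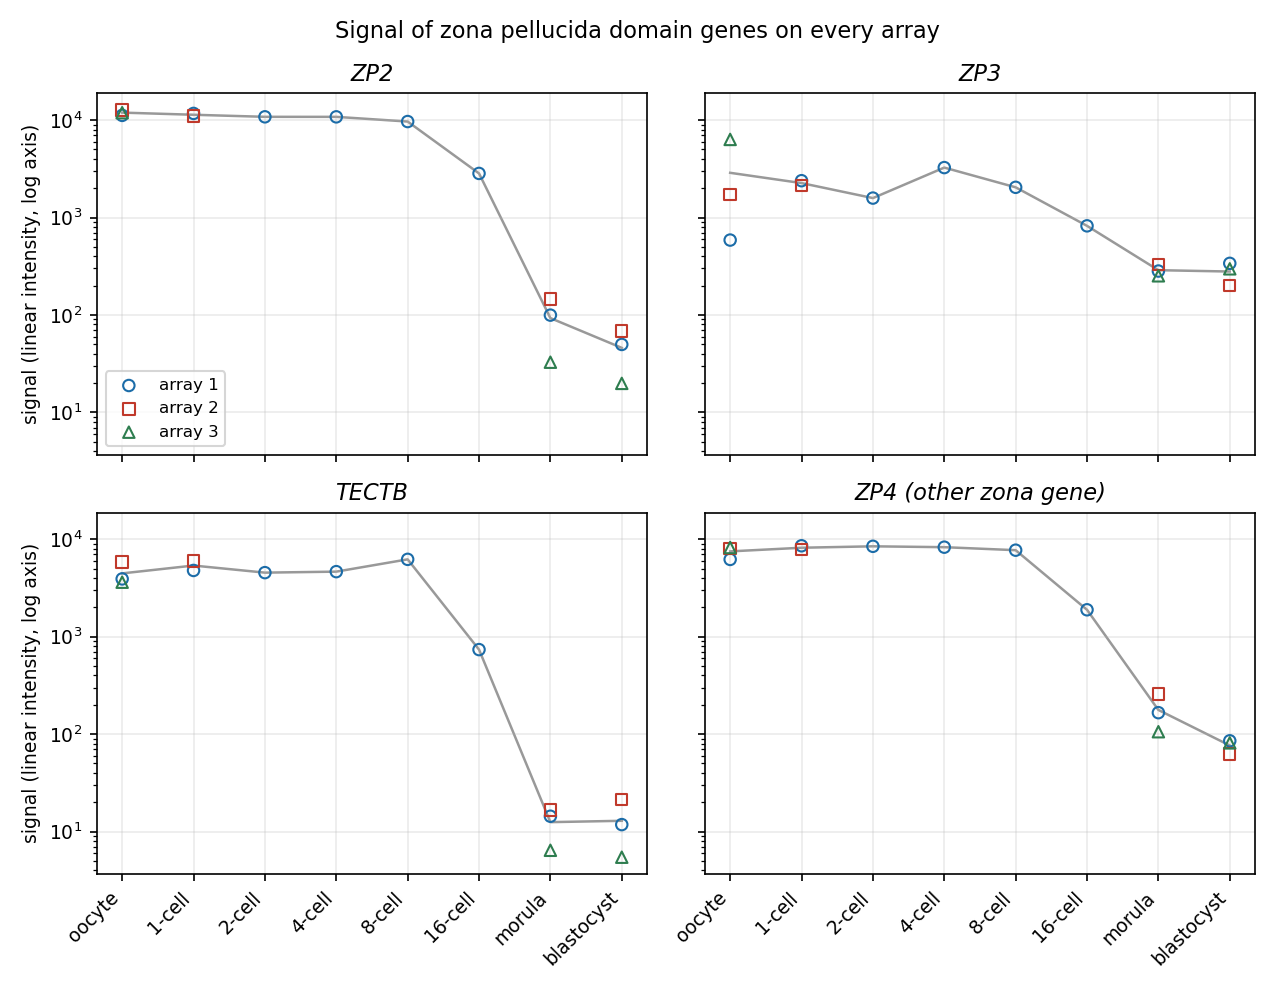
Signal (linear intensity on a log axis) of ZP2, ZP3, TECTB and, for comparison, ZP4 on each of the 15 arrays, by stage. Symbols mark the array number within a stage (single arrays have number 1) and the grey line joins stage means. ZP2 and TECTB stay within 9661 to 12718 and 3618 to 6207 up to the 8-cell array and end at or under 146 and 21.4 in morulae and blastocysts, whereas the oocyte arrays of ZP3 spread from 587 to 6332.

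ZP2 gave signals of 11174, 12718 and 11905 on the oocyte arrays and of 11706 and 10979 on the 1-cell arrays. The 2-cell, 4-cell and 8-cell arrays were at 10801, 10794 and 9661, and the 16-cell array at 2836. Morula arrays were at 99.7, 146 and 32.8, and blastocyst arrays at 49.9, 68.3 and 19.9. The ranges of oocytes and 1-cell embryos overlapped, those of morulae and blastocysts overlapped, and the 16-cell array stood alone between the high and the low arrays. The 3 single arrays of 2 to 8 cells each lay below every oocyte array, with the 8-cell array lowest. The size of that step was small against the fitted spread, which pools all replicated stages, the dim morulae and blastocysts among them. The 8 early arrays covered a 1.32-fold range, on arrays whose values ran up to 20788. Near the top of an array's range differences are compressed, and the part of this in the flat course of ZP2 was not tested.

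For ZP2 the mean fell from an oocyte level of 11933 ± 772 (SD, n = 3) to 92.9 ± 57.1 (SD, n = 3) in morulae and 46.0 ± 24.4 (SD, n = 3) in blastocysts. Differences are given as changes of log2(signal + 16), which understates changes of low signals, with adjusted p-values from a limma fit over all tested probe sets (Benjamini-Hochberg). ZP2 fell by 6.94 from oocyte to morula (SE 0.49, adjusted p = 2.63e-05) and by 7.67 from oocyte to blastocyst (SE 0.49, adjusted p = 2.07e-05). From oocyte to 1-cell embryo the change was -0.07 (95% interval -1.28 to 1.14), from oocyte to the mean of the 2-, 4- and 8-cell arrays -0.20 (-1.28 to 0.89), and from morula to blastocyst -0.73 (-1.82 to 0.35), none of which passed. The comparison with the 2- to 8-cell arrays called 6.2% of all probe sets in either direction. These intervals still allow changes of more than 2-fold. They rest on 1 spread for all stages. The log2 SD of ZP2 was 0.093 in oocytes and 0.065 in 1-cell embryos, against 0.895 in morulae and 0.634 in blastocysts. In a fit limited to oocytes and 1-cell embryos the SE of the ZP2 change was 0.16, against 0.54 over all stages. The change did not pass there either (limma adjusted p = 0.988).

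TECTB gave signals of 3909, 5837 and 3618 on the oocyte arrays and of 4775 and 5950.3 on the 1-cell arrays. The 2-cell, 4-cell and 8-cell arrays were at 4535, 4643 and 6207, and the 16-cell array at 736. Morula arrays were at 14.4, 16.7 and 6.42, and blastocyst arrays at 11.8, 21.4 and 5.45. The 8-cell array had the highest TECTB signal of all 15, the oocyte and 1-cell ranges overlapped, and no morula or blastocyst array came near the 16-cell array. The lowest early signal was 3618 and the highest signal of a morula or blastocyst 21.4.

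For TECTB the mean fell from 4455 ± 1206 (SD, n = 3) in oocytes to 12.5 ± 5.38 in morulae and 12.9 ± 8.05 in blastocysts (SD, n = 3 each). The change from oocyte to morula was -7.28 on the log2 scale (SE 0.38, limma adjusted p = 1.09e-05), and that to the blastocyst was also -7.28 (SE 0.38, adjusted p = 9.62e-06). These late signals were under the offset of 16 that was added before taking logs, or close to it. The log2 change is therefore set partly by that offset: it was -8.43 with an offset of 1 and -5.86 with an offset of 64. TECTB changed by 0.29 from oocyte to 1-cell embryo (95% interval -0.66 to 1.25) and by 0.00 from morula to blastocyst (-0.85 to 0.86), and neither passed.

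ZP3 behaved less uniformly, with oocyte arrays far apart from one another. Its signals were 587, 1713 and 6332 on oocyte arrays 1, 2 and 3, and 2388 and 2125 on the 1-cell arrays. The 2-cell, 4-cell and 8-cell arrays were at 1584, 3255 and 2042, and the 16-cell array at 822. Morula arrays were at 283, 330 and 252, and blastocyst arrays at 339, 201 and 298. The oocyte arrays thus spanned a wider range than all later arrays up to the 8-cell stage together, which lay between 1584 and 3255. Among morulae and blastocysts the 6 signals lay within a 1.68-fold range.

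For ZP3 the mean fell from an oocyte level of 2878 ± 3044 (SD, n = 3) to 288 ± 39.1 (SD, n = 3) in morulae, by 2.63 on the log2 scale (SE 0.70, limma adjusted p = 0.0263). To the blastocyst, at 279 ± 70.6 (SD, n = 3), it fell by 2.70 (SE 0.70, adjusted p = 0.0234). Neither call was firm. The morula call did not pass without oocyte array 2 (adjusted p = 0.0666) or without morula array 1, 2 or 3 (adjusted p = 0.0712, 0.0638 and 0.0621), without the arrays numbered 3 (-1.67, adjusted p = 0.0518) or in a fit limited to oocytes and morulae (adjusted p = 0.0889). The blastocyst call did not pass without oocyte array 2 (adjusted p = 0.0598), blastocyst array 1 or 2 (adjusted p = 0.0519 and 0.0779) or in a fit limited to oocytes and blastocysts (adjusted p = 0.0885). Oocyte array 1 was the lowest of the early arrays, and without it the morula change was -3.45, against -1.75 without oocyte array 3, the highest. From oocyte to 1-cell embryo the mean signal of ZP3 was lower on the linear scale, 2257 against 2878, and higher by 0.27 on the log2 scale, a change that did not pass (95% interval -1.48 to 2.03).

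The order of the stage means differed between the 3 genes. For ZP2 the order followed development, with the oocyte first and the blastocyst last. For ZP3 the 4-cell array came first, followed by oocyte, 1-cell, 8-cell, 2-cell, 16-cell, morula and blastocyst. For TECTB it was 8-cell, 1-cell, 4-cell, 2-cell, oocyte, 16-cell, blastocyst and morula. Neither the 1-cell arrays nor the mean of the 2- to 8-cell arrays passed against oocytes in any of the 3, nor did blastocyst against morula. The single 2-cell, 4-cell and 8-cell arrays were not tested one by one.

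All 3 members passed the test as lower in morula than in oocyte and in blastocyst than in oocyte, comparisons in which 7.16% and 7.36% of all probe sets were called lower. ZP2 and TECTB were named among the strongest falls of these data before this selection was made, so that count describes the members and gives no independent support. The median change of all probe sets from oocyte to morula was 0.04, and it was -0.06 after quantile normalization and -0.14 after median centring. Under both of these scalings all 3 falls kept their direction and passed. In the comparisons of 1-cell embryos with oocytes and of blastocysts with morulae no member passed. These called 0.271% and 0.167% of all probe sets in either direction. The comparisons share arrays, so the values of morula and blastocyst against oocyte are not separate evidence.

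**Figure D2:**
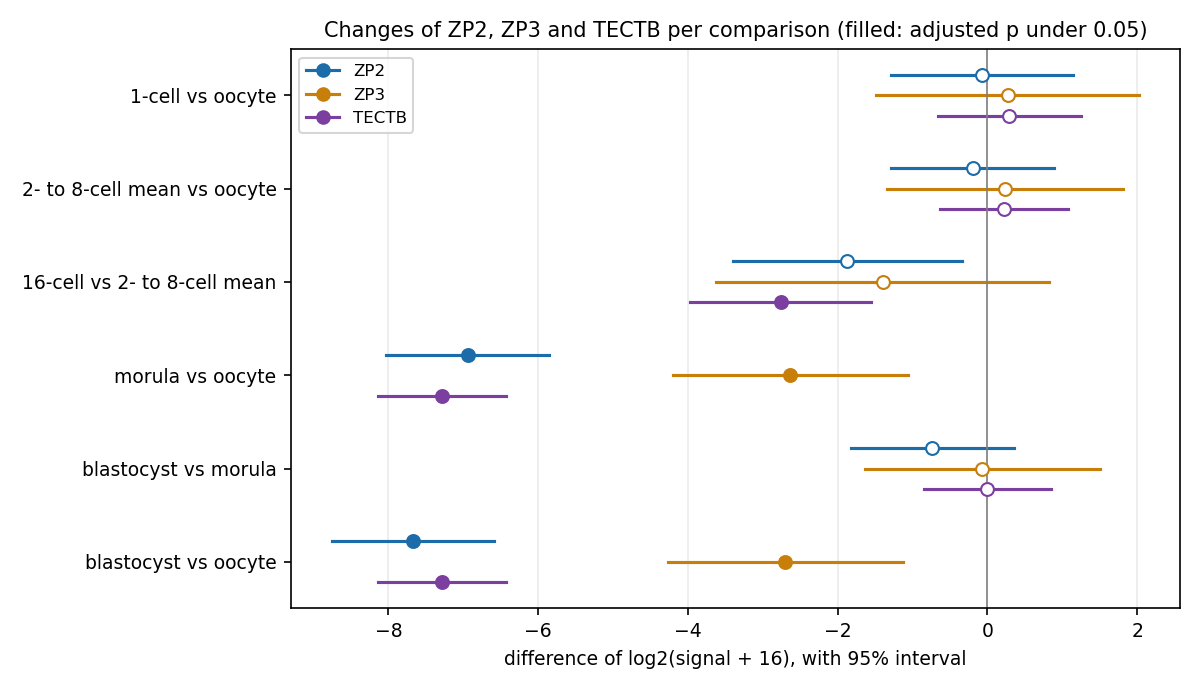
Difference of log2(signal + 16) with its 95% interval from the limma fit for ZP2, ZP3 and TECTB in 6 comparisons. Filled points have an adjusted p under 0.05. All 3 are filled in morula and blastocyst against oocyte, near -7 for ZP2 and TECTB and near -3 for ZP3, and TECTB alone is filled in the 16-cell comparison.

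The signals of the 16-cell array were compared with those of the stages on either side. It held 23.8% of the oocyte mean for ZP2, 28.6% for ZP3 and 16.5% for TECTB, whereas the 8-cell array held 81.0%, 71.0% and 139%. In log2 terms the 16-cell array had passed 29.8% of the way from oocyte to morula for ZP2, 44.2% for ZP3 and 34.9% for TECTB. The ZP3 values rested on single oocyte arrays. Without oocyte array 1 the 16-cell array had passed 57.5% of the ZP3 fall and held 20.4% of the oocyte mean, and without oocyte array 3 the values were 16.3% and 71.4%. For ZP2 and TECTB most of the log2 fall lay between the 16-cell array and the morula with any 1 oocyte array left out, at most 30.2% and 36.0% having passed before it. With 1 array at this stage there is no replicate check. A fit that assumes the lone array to vary like the replicated stages gave a change against the mean of the 2-, 4- and 8-cell arrays of -2.76 for TECTB (SE 0.54, limma adjusted p = 0.00992), -1.87 for ZP2 (SE 0.69, adjusted p = 0.122) and -1.40 for ZP3 (SE 1.00, adjusted p = 0.485). TECTB passed, in a comparison that called 3.24% of probe sets lower, and the other 2 did not. The spread used for ZP2 includes that of morulae and blastocysts, with a log2 SD of 0.895 and 0.634, against 0.093 in oocytes. ZP2 passed with quantile normalization (adjusted p = 0.0397), an offset of 64 (adjusted p = 0.0359), without morula array 3 (adjusted p = 0.0450) and without the arrays numbered 3 (adjusted p = 0.00783). Over all 20 alternatives of this comparison its adjusted p ran from 0.00783 to 0.216. The changes of the 3 genes at this step were not tested against each other.

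Some markers of other cell types were higher on the 16-cell array. Of 20 measured cumulus and granulosa cell markers 4 passed as higher there than on the 2- to 8-cell arrays and none as lower, in a comparison in which 10.2% of all named genes rose. Among the 4 was FST, which encodes the activin-binding protein follistatin, at 945 against 18.4 to 30.5. The others were HSD3B1 at 780 against 19.4 to 31.8, CD44 at 571 against 25.1 to 175 and HAS2 at 4710 against 28.2 to 2179. The summed signal of the 20 markers was 12625 on the 16-cell array, within the 6421 to 13898 of the 8 earlier arrays. A large part of that sum was HAS2 and SERPINE2 (4096), so it says little about the dimmer markers. Of 12 markers of the first embryonic epithelium 4 passed as higher, against the same 10.2%, with a sum of 12146 against 805 to 3452. The part of these in the lower signals of ZP2, ZP3 and TECTB was not tested.

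Whether the 3 transcripts fell by unequal amounts was asked within arrays, where a shift common to an array cancels. The log2 signal of ZP2 minus that of ZP3 changed by -4.31 from oocyte to morula and by -4.98 from oocyte to blastocyst, and TECTB minus ZP3 changed by -4.65 and -4.58, values that ran from -5.74 to -3.38 and from -5.71 to -3.32 over the alternatives. In these 4 comparisons the arrays of the 2 stages did not overlap, and the two-sided exact permutation p was 0.10, the smallest that 3 against 3 arrays can give. With arrays paired by number the exact p was 0.25 in each, the smallest that 3 pairs can give. The difference of ZP2 and TECTB changed by 0.34 (p = 0.50) and -0.40 (p = 0.30, both exact), and there the arrays overlapped. The sign of both turned with the offset: the morula change was -0.47 with an offset of 64 and the blastocyst change 0.32 with an offset of 1. These 6 tests thus cannot pass a threshold of 0.05, whatever the sizes, and adjusted over the 6 no p is below 0.15.

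Control ratios that read RNA length were set beside the stages. For the cyclophilin control, the signal of its middle probe set divided by that of its 3′ probe set, a quotient that is lower where labelled RNA is shorter, was 0.0607, 0.102 and 0.0141 in oocyte arrays 1 to 3, between 0.178 and 0.322 in morulae and between 0.499 and 0.766 in blastocysts. It was 0.562 on the 2-cell array and 0.0115 on the 8-cell array, where ZP2 was at 10801 and 9661, and 0.475 on the 16-cell array. The same ratio of GAPDH was 0.0374 to 0.237 in oocytes, 0.1001 to 0.625 in morulae and 0.339 to 0.643 in blastocysts, and that of EIF4E 0.0388 to 0.235, 0.0636 to 0.887 and 0.0490 to 0.163. So the cyclophilin ratios of oocytes did not overlap those of morulae or blastocysts, the GAPDH ratios of oocytes and morulae did, and the EIF4E ratios overlapped in all 3 stages. Their part in the signals of the 3 genes was not tested. Labelling control transcripts of bacterial origin gave signal on 9 arrays and not on the others (lys at 2815 or more against at most 84.1). Array 3 of the oocytes, morulae and blastocysts carried them, and array 1 of each did not. With this class as a block in the fit, ZP2, ZP3 and TECTB still fell from oocyte to morula. The spread of ZP3 over the oocyte arrays ran alongside the lys signal of 69.0, 2815 and 13077, whereas the 1-cell arrays had ZP3 at 2388 with a lys signal of 84.1 and at 2125 with one of 8476. Its part there was not tested.

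Other genes of the same protein family were read from a fixed list of 12, of which 6 were on the array under their symbols. ZP4, the further zona glycoprotein, had oocyte signals of 6197, 8070 and 8210 and morula signals of 166, 259 and 106. It fell by 5.35 (SE 0.36, limma adjusted p = 2.54e-05), and its 16-cell signal of 1885 was lower than the mean of the 2- to 8-cell arrays by a log2 change of -2.10 (SE 0.51, adjusted p = 0.0275). OIT3, a zona pellucida domain protein of liver, fell by 1.81 (adjusted p = 0.00861) from a low signal of 101 ± 32.0 (SD, n = 3). UMOD, which encodes the kidney protein uromodulin, GP2, DMBT1 and ENG did not pass, with changes of -0.78, 0.73, 0.34 and 0.01. So 2 of 6 fell and none rose, where 8.63% of the 9155 genes named on the array fell and 17.7% rose, and the median change was -0.38 in the list and 0.14 over all genes. The genes ZP1 and TECTA, the partner of TECTB in the inner ear, were not analysed here.

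ZP4 was also the gene whose course over the 15 arrays was most like that of ZP2. Likeness was measured as Pearson's r of log2(signal + 16) over the 15 arrays, among 6235 genes with a stage mean above the median. These r values mostly reflect the contrast between the early and the late arrays, are given as a description and carry no p. The 5 nearest to ZP2 were ZP4 (0.994), KPNA7, a nuclear import receptor of oocytes (0.990), RGS16, a regulator of G-protein signalling (0.990), PRSS2, a trypsinogen (0.990), and LEF1, a transcription factor of Wnt signalling (0.989). In all 79 genes reached 0.95. The 5 nearest to TECTB were KPNA7 (0.996), PHYHIPL (0.994), TSPAN7, a tetraspanin (0.994), GFI1, a transcriptional repressor (0.993), and SYTL2 (0.993), and 80 genes reached 0.95. Over the 8 stage means instead of arrays, GFI1 came first for ZP2 and ZP4 second (both 0.997), and 3 of the 5 nearest to ZP2 and 2 of the 5 nearest to TECTB were the same genes.

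ZP3 had fewer close matches over the 15 arrays. The nearest were MPHOSPH9 (0.967), FRMD5 (0.957), a second probe set of RGS16 (0.946), the vault protein gene MVP (0.941) and the kinase gene CSNK1D (0.939), and 2 genes reached 0.95. Each of these 5 had its lowest oocyte signal on array 1 and its highest on array 3, as ZP3 had. They were chosen by r over the same arrays, so this likeness is partly built in and is no separate result. MPHOSPH9 had 27.8, 374 and 874 and MVP had 362, 1155 and 2679, while CSNK1D was nearly level on oocyte arrays 2 and 3, at 1884 and 1906. The 2 probe sets of RGS16 differed in their spread over oocyte arrays, since the one near ZP2 had 12552 ± 884 (SD, n = 3) in oocytes and the one near ZP3 had 1102 ± 1250 (SD, n = 3). Over the 8 stage means none of these 5 remained among the nearest. There 94 genes reached 0.95 for ZP3, against 169 for ZP2 and 159 for TECTB. Between members, r over all arrays was 0.992 for ZP2 and TECTB, 0.885 for ZP2 and ZP3 and 0.887 for ZP3 and TECTB. Within the 8 arrays from oocyte to 8-cell it was -0.27, 0.13 and -0.10, and with ZP4 it was 0.15 for ZP2, 0.74 for ZP3 and 0.20 for TECTB.

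**Figure D3:**
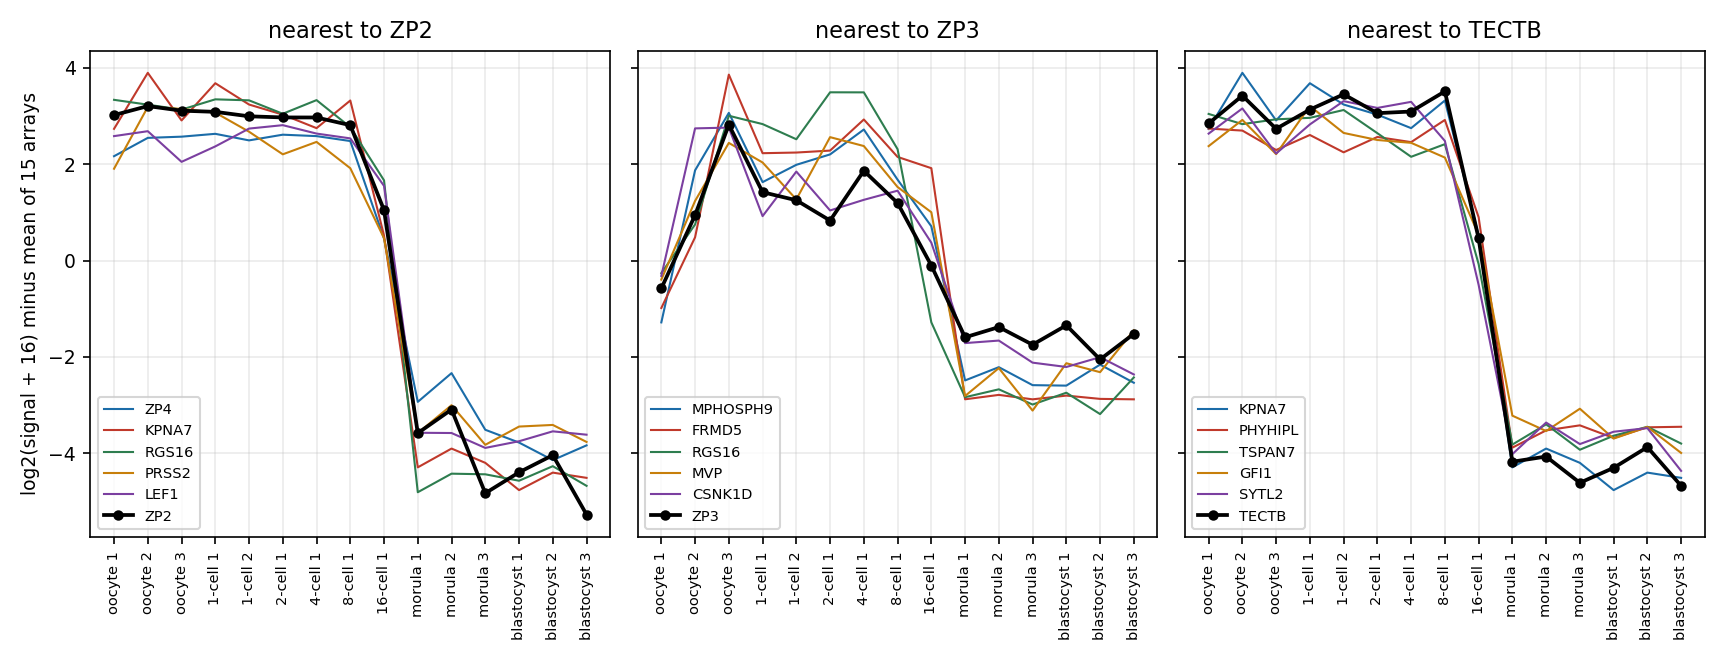
log2(signal + 16) minus its mean over the 15 arrays, for ZP2, ZP3 and TECTB (black) and the 5 genes with the highest Pearson r to each (coloured), with the arrays along the horizontal axis. The genes near ZP2 and TECTB stay high up to the 8-cell array and drop over the 16-cell array to the morulae. Not all are flat before that: PRSS2 signals run from 1242 to 3041 and those of KPNA7 from 6329 to 14177. The genes near ZP3 share its low value on oocyte array 1 and its high value on oocyte array 3. The coloured genes were chosen for such likeness over these same arrays.

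Few of the known regulators of zona genes could be read. Among 11 listed genes 3 were measured, all partner proteins (E-proteins) of the oocyte factor that binds E-box sequences of zona genes. That factor, FIGLA, and the oocyte factors NOBOX and LHX8 were not analysed here. TCF4 had oocyte signals of 219, 531 and 1199 and morula signals of 32.6, 27.1 and 34.9. It fell by 3.50 (SE 0.66, limma adjusted p = 0.00451) and was already at 54.1 on the 16-cell array. Its oocyte arrays had the same order as those of ZP3, lowest on array 1 and highest on array 3. TCF12 had that order as well and TCF3 did not, at 4027, 1839 and 6345. The share of all probe sets with that order was not counted. TCF3 had a change from oocyte to morula of -1.82 (adjusted p = 0.122) and TCF12 of 0.23 (adjusted p = 0.880), and neither passed. The other probe set of TCF3 had a change of -0.11 and did not pass. From oocyte to blastocyst TCF3 passed as lower (-2.61, limma adjusted p = 0.0340). There 2 of the 3 genes fell, against 8.95% of all named genes.

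Transcripts of proteins that lie beneath the egg surface also fell where measured. Of 8 listed genes of the subcortical maternal complex and its partners 2 were measured. Both fell from oocyte to morula, where 8.63% of all named genes fell. NLRP5 had oocyte signals of 1549, 1166 and 6445 and morula signals of 248, 326 and 223, and fell by 3.04 (SE 0.57, adjusted p = 0.00435 in limma). OOEP fell by 3.05 (SE 0.88, adjusted p = 0.0376), although morula array 3, at 3251, lay within the oocyte range of 2857 to 6896. On that same array ZP2 and TECTB had their lowest morula signals. Of 6 measured oocyte markers 5 fell, against the same 8.63%. The changes were -7.30 for KPNA7, -6.25 for MOS, -5.66 for UCHL1, -4.21 for GDF9 and -2.74 for BMP15, and KIT did not pass (-0.90). BMP15, a growth factor of oocytes, was at 423, 708 and 4779 on the oocyte arrays, and its other, dim probe set did not pass (-0.79). UCHL1 and OOEP shared this order of oocyte arrays with BMP15 and ZP3, though UCHL1 was nearly level, at 8082, 8620 and 8678. KPNA7, MOS, GDF9, KIT and NLRP5 did not share it, though NLRP5 was also highest on array 3. The median change of the 6 markers was -4.94. ZP2 and TECTB fell by more than that and ZP3 by less, differences that were not tested.

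Among 6 measured genes of egg surface proteins 2 rose and none fell from oocyte to morula, where 17.7% of all named genes rose and 8.63% fell. CD9, a tetraspanin needed for fusion with sperm and also found on many epithelia, rose by 3.09 from oocyte to morula (SE 0.73, limma adjusted p = 0.0150), from 691 ± 415 to 5545 ± 2980 (SD, n = 3 each). CD46, a complement regulator, rose by 2.40 (adjusted p = 0.00140), while its other, dimmer probe set had a change of 0.63 and did not pass. The integrin ITGB1 did not pass in morulae (-0.70). It was lower before that, at 988, 843 and 1923 on the 2-cell, 4-cell and 8-cell arrays against an oocyte mean of 7999. The mean of these arrays differed from oocytes by -2.71 (limma adjusted p = 0.00893). ITGB1 was the only gene of the list to pass there, where 3.13% of all named genes fell. When the fit held no other stage, that comparison called 0 probe sets.

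Proteases and secreted factors that can act on the coat were mixed. Of 11 measured genes 3 rose and 1 fell from oocyte to morula, where 17.7% of all named genes rose and 8.63% fell. The median change was 0.08 in the list and 0.14 over all genes. PLAU, the urokinase plasminogen activator, had signals of 89.9, 67.6 and 35.4 in oocytes, 868 on the 16-cell array and 4808, 3702 and 1023 in morulae, and rose by 5.11 (SE 0.67, adjusted p = 5.98e-04 in limma). Blastocysts had PLAU signals of 8888 to 11808, above all morula arrays. The change from morula to blastocyst was 1.95 and did not pass (limma adjusted p = 0.457), in a comparison that called 0.167% of all probe sets. CTSL, a cathepsin, was at or under 10.2 on every array up to the 16-cell stage, at 860, 637 and 201 in morulae and at 2749, 4309 and 609 in blastocysts, and rose by 4.62 to the morula (SE 0.71, adjusted p = 0.00151). OVGP1, the oviduct glycoprotein that binds the coat, rose by 1.99 (adjusted p = 0.0256), from a dim oocyte mean of 31.3 to 84.6, 114 and 403 in morulae. In blastocysts its mean was 56.1, and it did not pass against oocytes (0.69, limma adjusted p = 0.427). PLG, the plasminogen gene, fell by 1.61 to the morula (adjusted p = 0.0347), with a change of -0.52 that did not pass in its other probe set. CTSB, whose product is another cathepsin, went from an oocyte mean of 6364 ± 129 (SD, n = 3) to a morula mean of 5896 ± 629 (SD, n = 3) and did not pass (-0.12). Of its 5 other probe sets 1, dim in oocytes, rose by 4.02 and 4 did not pass. FURIN did not pass (0.08), whereas its other probe set fell by 1.84 (limma adjusted p = 0.0180), from an oocyte mean of 135 to a morula mean of 25.4.

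**Figure D4:**
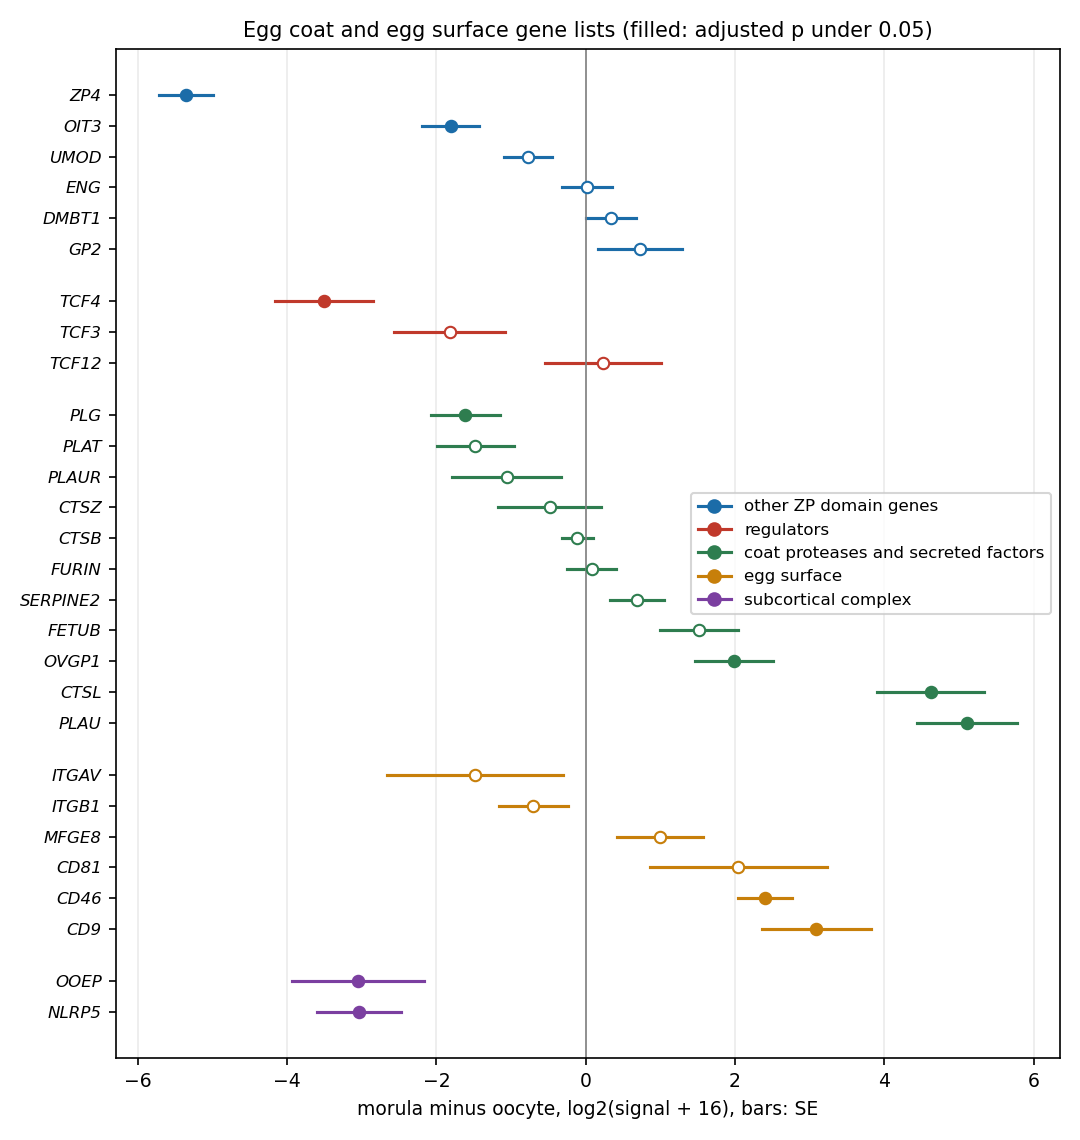
Change from oocyte to morula, as the difference of log2(signal + 16) with its SE, for measured genes of 5 lists: other zona pellucida domain genes, regulators, coat proteases and secreted factors, egg surface proteins and the subcortical complex. Filled points have an adjusted p under 0.05. ZP4 at -5.35 lies farthest to the left and PLAU at 5.11 farthest to the right.

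Few genes of the inner-ear setting of TECTB could be read beside it. Of 10 listed genes of the tectorial and otolithic membranes 2 were measured, the collagen genes COL11A2 and COL9A1. Their oocyte signals were 29.7 ± 16.1 and 30.3 ± 6.33 (SD, n = 3 each), and their changes from oocyte to morula were -0.09 and 0.22, without passing. The genes OTOA, OTOG and STRC were not analysed here.

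The stage labels were read against markers. The summed signal of the 6 oocyte markers was 24570 to 40347 on the 8 arrays from oocyte to 8-cell and 2417 to 8175 on the 6 morula and blastocyst arrays, and that of the 12 epithelium and trophectoderm markers was 805 to 3452 and 27482 to 59944. Of the 20 cumulus and granulosa markers 1 rose and 4 fell from oocyte to morula, where 17.7% of all named genes rose and 8.63% fell. The sum of the 20 was 8778 to 11907 in oocytes and 14849 to 17675 in morulae. HAS2 made up a large part of it at 8951 ± 318 (SD, n = 3) in morulae. The 3 probe sets of HAS2 disagreed, with changes of 2.53, -6.20 and 3.83. FSHR and CYP11A1 had oocyte means of 5.33 and 20.5, and INHA and INHBA had 360 and 235. Other genes of the list, HAS2, VCAN, TNFAIP6, PTX3 and STAR, had 1552, 678, 568, 288 and 2712. Of 6 sperm markers 1 rose from oocyte to morula, ODF2 by 3.58, against the same 17.7%. PRM1 was at 7.42 in oocytes. Mean signal per array ran from 558 to 717 in the files, and the number of arrays limited the precision.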

How the data were processed

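The values are those the authors deposited, 1 linear intensity per probe set and array (0.39 to 20788), and were not scaled further. Per the labels' protocols, 3 rounds of amplification came before biotin labelling. How probes were summarized and arrays scaled is not stated in the labels. After 112 control probe sets were left out, 24016 were tested on log2(value + 16) with limma 3.58.1 in R 4.3.3: 1 mean per stage over all 15 arrays, a variance trend with mean intensity, 7 residual degrees of freedom and Benjamini-Hochberg adjustment at 0.05. Stages with 1 array added no degrees of freedom. Symbols came from the platform's annotation, with older ones replaced by those RefSeq gives the same gene in ARS-UCD2.0. Among tested probe sets 13292 had 1 symbol, 86 several and 10638 none, and the probe set with the highest mean stood for a gene.

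The members, lists and alternatives were chosen with earlier results of these data known. The text names every member, per list up to 4 genes past the morula test with the largest change, or else its 2 highest, and the 5 genes nearest to each member. The epithelium and trophectoderm markers are an exception, given as counts and sums only. FST, HSD3B1, CD44, SERPINE2, FSHR, CYP11A1, INHA, INHBA, PTX3, PRM1, BMP15, KIT, TCF3, TCF12, UMOD, GP2, DMBT1, ENG, ITGB1, CTSB and FURIN were named after their values were seen. Deviations from the stage mean correlated between arrays of the same number. The r was 0.107 to 0.182 between oocytes and morulae, 0.276 to 0.285 between oocytes and blastocysts and 0.106 to 0.306 between morulae and blastocysts. For 1-cell and oocyte arrays of the same number it was 0.183 and -0.115. In these 3 stages arrays 1 and 2 also correlated across numbers, at 0.0106 to 0.304. Morula array 1 was nearer to blastocyst array 2 (0.304) than to blastocyst array 1 (0.195). Array 3 against arrays 1 and 2 gave -0.340 to -0.127. So the numbers set array 3 apart, and reading them as pairs in these 3 stages is an assumption. Leaving out oocyte arrays for the shares and pairing the within-array differences were chosen after seeing the data. The fits were tested on simulated data. Figures were drawn with matplotlib 3.10.9.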

Additional observations from a re-analysis of the deposited data

How the results depend on the processing

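The falls of ZP2 and TECTB from oocyte to morula and to blastocyst passed under all 22 alternatives of each comparison, with changes from -7.31 to -6.33 and -8.15 to -6.79 for ZP2 and -8.43 to -5.86 and -8.47 to -5.85 for TECTB. The ZP3 change was below 0 in every alternative of both comparisons. Its morula change was -2.63 when the fit held no other stage and -1.67 without the arrays numbered 3, neither passing, and ran from -3.45 to -1.75 as replicates were left out. Its blastocyst change was -2.70 when the fit held no other stage, not passing, and ran from -3.52 to -1.82. The cause was not tested. For the 16-cell step ZP2 passed at -2.29 with quantile normalization, -1.85 with a pseudocount of 64 and -1.87 without the arrays numbered 3. Leaving out a replicate cannot move that change, which stays at -1.87, since its arrays are single, but it passed without morula array 3. Changes that passed nowhere turned sign: ZP2 was at 0.025 for the 2- to 8-cell arrays with the spike-in signal as a block, TECTB at -0.041 for blastocyst against morula with a pseudocount of 1, and ZP2 minus TECTB at -0.47 (morula, pseudocount of 64) and 0.32 (blastocyst, pseudocount of 1). As replicates were left out, ZP3 ran from -0.55 to 1.15 for 1-cell embryos and from -0.59 to 1.11 for the 2- to 8-cell arrays, ZP4 there from -0.00027 to 0.20, and blastocyst against morula from -0.21 to 0.14 for ZP3 and -0.20 to 0.20 for TECTB. With the replicate block the oocyte to morula changes were -6.94 for ZP2, -2.63 for ZP3 and -7.28 for TECTB, and the block changed no member's call in the comparisons it could be fitted to. The 16-cell step could not be fitted with only its own stages, nor the 2- to 8-cell and 16-cell steps with the block.

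The number of probe sets called moved more. It was 65 for 1-cell against oocyte and at most 419, 1488 for the 2- to 8-cell arrays against oocyte and at most 4661, 2681 for the 16-cell step and at most 5698, 4550 for morula against oocyte and at most 7102, and 40 for blastocyst against morula and at most 95, each highest without the arrays numbered 3. The 1-cell count was 38 with the replicate block or quantile normalization, 35 with median centring, 42 with a pseudocount of 1 and 110 without a variance trend, and the blastocyst against morula count 13 and 66 with pseudocounts of 1 and 64. As replicates were left out these 2 counts ran from 8 to 169 and from 3 to 71, and the 2- to 8-cell count from 781 to 2289. When the fit held no other stage, limma called 0 probe sets in the 1-cell, 2- to 8-cell and blastocyst against morula comparisons, where 1606, 3630 and 1738 had an unadjusted p under 0.05. Lower calls were 37.8% of those in morula against oocyte, 48.6% after quantile normalization and 47.5% after median centring, and 29.1%, 41.4% and 36.8% in the 16-cell step.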
